A study of Mus musculus with 21 samples.

Results

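Levels of 10 genes of the AP-1 and immediate early response were described in tail keratinocytes, the epithelial cells of the epidermis, of 3 mouse models of basal cell carcinoma (BCC). The genes were taken by name from the deposited count table: Fos, Fosb, Fosl1, Fosl2, Jun, Junb, Jund, Egr1, Atf3 and Dusp1, 10 of its 23713 genes. All 10 passed the filter on low counts in every model, so none is left out. Each model had 3 libraries of control mice without tumours (Con) and 4 of tumour-bearing mice (BCC), 21 in all. SmoM2, named for an activated form of the Hedgehog receptor protein Smoothened, was sampled on day 29 after the tumours were induced and formed batch A. Gnas-eKO, named for a knockout of Gnas, the stimulatory G protein alpha subunit that raises cAMP, was sampled on day 42 and formed batch B. PKI, named for an inhibitor of protein kinase A, was sampled on day 57 and formed batch C. Model, batch and day therefore cannot be told apart, and BCC was compared with Con within a model. The genotype of the Con mice, the promoter that drives each alteration and the age of the mice are not given in the sources used here. Per the labels' protocols, tail skin was kept overnight in trypsin and dispase in the cold, and the scraped epidermis was minced in trypsin before lysis.

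AP-1 is a dimer of basic leucine zipper proteins. A Jun protein pairs with another Jun protein, with a Fos protein or with a related factor such as Atf3, and the dimer binds short DNA sites that turn genes on or off. Growth factors, stress and injury switch on Fos, Jun and Egr1 within minutes through MAP kinases, without new protein synthesis, which is why they are called immediate early genes. Dusp1, a phosphatase that switches MAP kinases off, is induced along with them. Fos transcription is also known to respond to cAMP through CREB, a target of protein kinase A that binds the cAMP response element (CRE). In skin, AP-1 factors are known for their roles in keratinocyte growth, differentiation and wound response.

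The promoters of Fos, Junb and Dusp1 are shown as examples of the 5 members that hold the core of a CRE, TGACG, in the 300 bases around the RefSeq start of the gene in GRCm38.p6. They were not chosen by how closely their levels moved together: Fosb and Atf3 correlated more closely over the libraries (r = 0.919, described further on), and Jun, without a core in its window, had r of 0.826 with Atf3. They are written 5′ to 3′ on the strand of the gene, with the cores, or the whole CRE TGACGTCA, in capitals. The Fos promoter lies at chr12:85473640-85473939 on the plus strand, that of Junb at chr8:84978699-84978998 on the minus strand and that of Dusp1 at chr17:26508423-26508722 on the minus strand.
Fos: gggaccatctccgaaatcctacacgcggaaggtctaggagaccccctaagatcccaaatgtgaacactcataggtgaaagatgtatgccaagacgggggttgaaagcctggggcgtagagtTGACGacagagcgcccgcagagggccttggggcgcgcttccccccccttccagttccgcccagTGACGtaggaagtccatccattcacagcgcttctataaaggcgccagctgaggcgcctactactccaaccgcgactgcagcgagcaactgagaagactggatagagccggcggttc
Junb: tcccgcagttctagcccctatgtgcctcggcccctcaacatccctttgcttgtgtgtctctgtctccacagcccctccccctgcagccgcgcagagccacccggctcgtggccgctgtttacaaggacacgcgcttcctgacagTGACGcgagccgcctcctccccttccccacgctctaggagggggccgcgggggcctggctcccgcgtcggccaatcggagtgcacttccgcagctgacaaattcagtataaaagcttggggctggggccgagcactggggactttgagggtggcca
Dusp1: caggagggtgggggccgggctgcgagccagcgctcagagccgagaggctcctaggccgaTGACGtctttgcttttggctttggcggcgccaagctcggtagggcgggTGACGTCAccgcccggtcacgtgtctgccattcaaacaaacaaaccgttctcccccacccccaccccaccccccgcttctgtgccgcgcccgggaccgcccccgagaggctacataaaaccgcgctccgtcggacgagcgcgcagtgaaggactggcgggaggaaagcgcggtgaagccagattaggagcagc
In Fos the cores start at −129 and −66 relative to the start, in Junb at −106, and in Dusp1 at −191 and, within the whole CRE, at −143.

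Searched on both strands, TGACG was found in 5 of the 8 members with a RefSeq promoter (Fos, Fosb, Junb, Atf3 and Dusp1) and in 20.8% of all 32851 promoters of this length. The whole CRE, TGACGTCA, which holds the core on both strands, was found in Dusp1 alone, against 1.79% of all promoters. The GC box GGGCGG was found in 6 of the 8, against 35.7%. The Egr site GCGGGGGCG was found in Fosb and Fosl2, 2 of the 8, against 2.91%, and in both it overlaps a GC box. No window held an AP-1 site TGANTCA with C or G in the middle (5.2% of all promoters), a CArG box (1.63%) or the Gli site GACCACCCA (0.253%). The windows of Jund and Fosl2 hold no transcript start of GENCODE M21. That of Jund ends before the annotated gene, with the RefSeq start 1210 bases from the nearest annotated one, and for Fosl2 the distance is 299 bases. Of the other 6 members, 5 held TGACG, 5 the GC box and 1 the Egr site. A match is a description of the letters in this window.

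The libraries held 16645858 to 22251132 counts. The altered genes were read first. Smo had 93.8 to 110 CPM (counts scaled to library size) in the SmoM2 Con and 283 to 313 CPM in the SmoM2 BCC libraries. It was also higher in BCC, without overlap, in PKI (log2 fold change 0.53, edgeR adjusted p 0.00187) and Gnas-eKO (0.85, edgeR adjusted p 0.0503, not called), beside 1.55 in SmoM2 (edgeR adjusted p 1.13e-06). Gnas had 172 to 178 CPM in the Gnas-eKO Con and 50.6 to 114 CPM in the Gnas-eKO BCC libraries, without overlap, although its log2 fold change of −1.11 did not pass (edgeR adjusted p 0.0647). On the first principal component of log2 CPM, which held 37.1% of the variance of 12030 genes, Con libraries had values of −36.3 to −24.8, and BCC libraries of 13.3 to 36.7 apart from Gnas-eKO BCC replicate 2 at −8.82. That library had the lowest level of 8 of the 10 genes among the Gnas-eKO BCC libraries. The keratinocyte markers Krt5, Krt14, Krt1, Krt10, Trp63, Dsp, Itgb4 and Perp summed to 61431 to 77764 CPM in SmoM2 Con and 41413 to 56609 CPM in SmoM2 BCC, and to 61573 to 72508 and 31780 to 54142 CPM in Gnas-eKO, lower in BCC without overlap in both. In PKI the sums of 55228 to 73915 CPM in Con and 49202 to 78791 CPM in BCC overlapped. Abundant keratins carry these sums, and the markers did not all move alike. In SmoM2 6 of the 8 were called lower and Trp63 higher (log2 fold change 0.48, edgeR adjusted p 0.00356), in PKI 3 lower and Krt1 higher (1.80, edgeR adjusted p 0.0414), and in Gnas-eKO edgeR called 0, with 2 under an unadjusted p of 0.05 and Krt1 at 0.36 and Trp63 at −0.09.

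Between the genes, levels were compared per kilobase of annotated exon. Jund, a constitutively expressed Jun family member, had the highest mean level per kilobase in 5 of the 6 groups, with group means of 125 to 151 CPM per kilobase. Junb, a Jun family member with roles in epidermal homeostasis, came next with 86.8 to 191 CPM per kilobase and stood first in PKI BCC. The ranges of Jund and Junb overlapped in SmoM2 Con, SmoM2 BCC, Gnas-eKO BCC and PKI BCC, and were apart in the other 2 groups. Fos, Egr1, Jun, Dusp1 and Fosl2 held the middle ranks, with group means between 23.4 and 93.5 CPM per kilobase and overlapping ranges for most neighbours in the order. Fosb was at rank 8 in all 6 groups with 4.47 to 13.5 CPM per kilobase, Atf3 at rank 9 with 2.1 to 8.93, and Fosl1 last with 0.441 to 4.29. The ranges of Atf3 and its neighbour Fosl1 were apart in PKI Con only and overlapped in the other 5 groups.

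**Figure D1:**
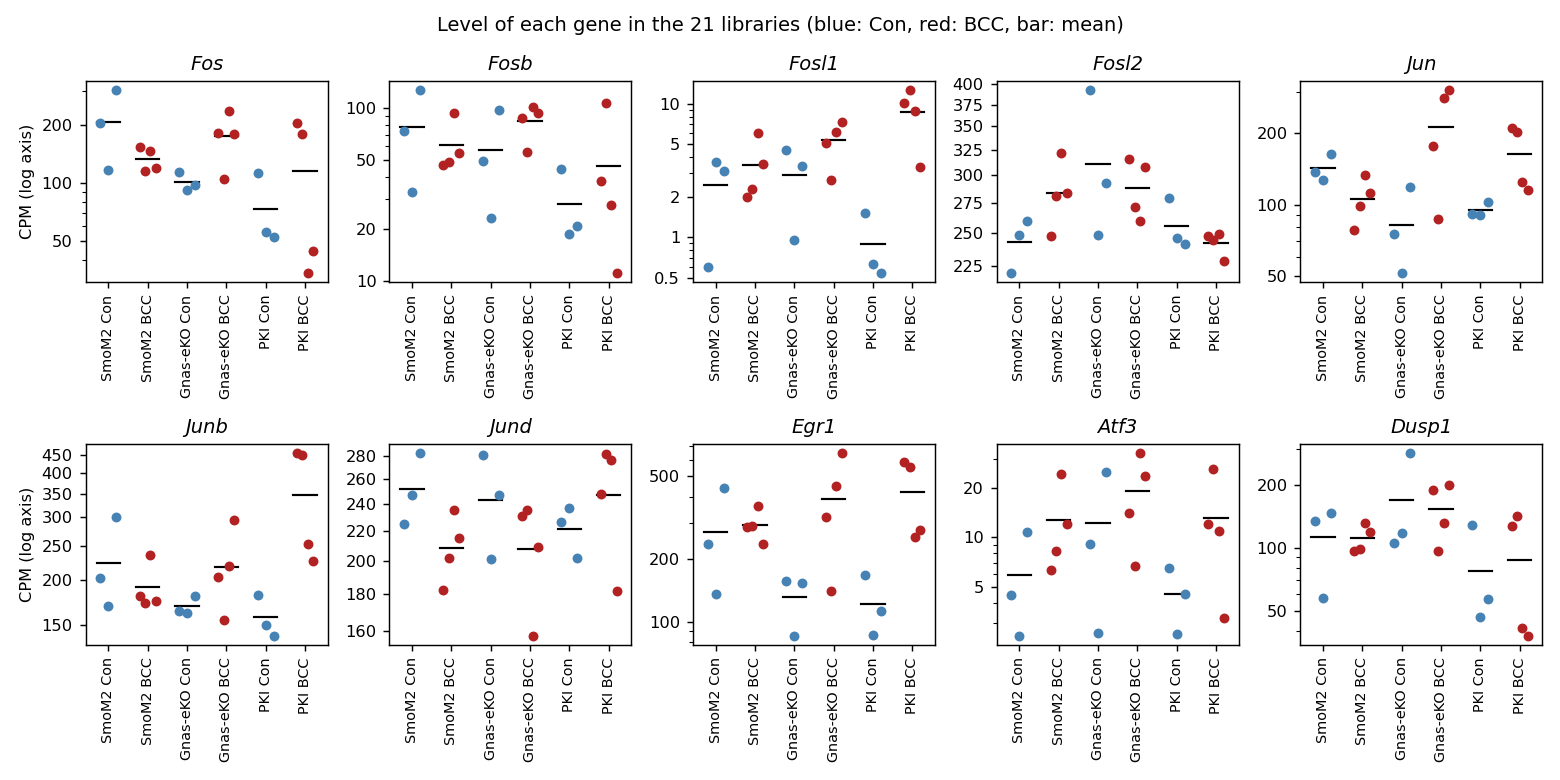
CPM of each of the 10 genes (log axis, a scale of its own for each gene) in the 6 groups, 1 point per library, blue for Con (n = 3) and red for BCC (n = 4), with a bar at the group mean. The 4 PKI BCC points of Fosl1, Jun, Junb and Egr1 lie above the 3 PKI Con points, and the PKI BCC points of Fos and Dusp1 fall into a high and a low pair.

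BCC libraries had more Fosl1, Jun, Junb and Egr1 than Con libraries in PKI, by 1.74-fold to 9.55-fold, while no gene of the 10 passed the edgeR test in SmoM2 or Gnas-eKO. In PKI 4 of the 10 genes were called, all higher in BCC, where 34.5% of the 16397 genes tested were called and 18.7% were called higher. The same 4 genes were the ones whose BCC and Con libraries did not overlap, which held for 43.2% of all genes tested in PKI. Without PKI Con replicate 2 or 3 only Fosl1 was called of the 10 (24.1% and 25% of all genes), and without PKI BCC replicate 4 there were 6 (33.7%). In SmoM2 edgeR called 0 of the 10 at an adjusted p under 0.05, against 29.7% of 16370 genes (16.2% higher in BCC). At an unadjusted p under 0.05 there were 3 (40.4% of all genes tested), the DESeq2 Wald test called 1 (26.7%) and limma 0 (31.6%), so that these shares too lay below those of all genes. In Gnas-eKO edgeR also called 0 of the 10, against 1.63% of 16409 genes (1.46% higher in BCC), with 3 at an unadjusted p under 0.05 (19.6% of all genes tested), 3 called by the DESeq2 Wald test (8.32%) and 0 by limma (1.58%). In these 2 models no gene of the 10 had groups that did not overlap, against 38.9% of all genes tested in SmoM2 and 19.8% in Gnas-eKO. In SmoM2 the 10 genes had a median log2 fold change of −0.11, in Gnas-eKO of 0.63 and in PKI of 0.76, while that of all genes tested was 0.00, 0.02 and −0.00. In bulk RNA, fewer cells of a type and less RNA per cell cannot be told apart.

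**Figure D2:**
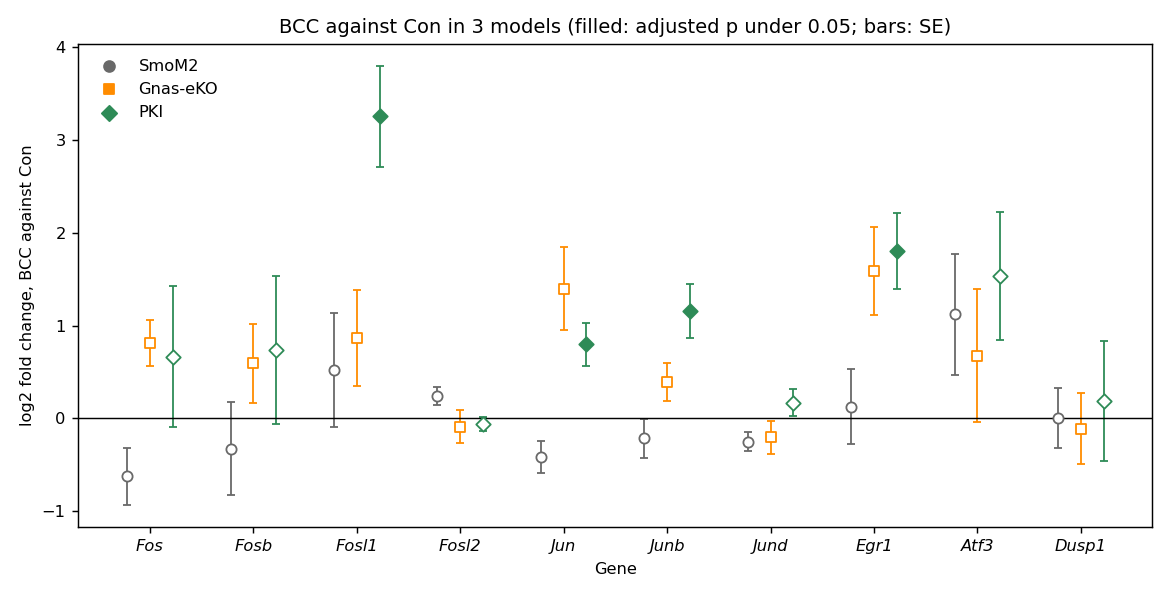
Log2 fold change of BCC against Con for the 10 genes in SmoM2 (circles), Gnas-eKO (squares) and PKI (diamonds), with bars of 1 SE. Filled symbols mark an edgeR adjusted p under 0.05: these are Fosl1 at 3.26, Egr1 at 1.80, Junb at 1.16 and Jun at 0.80, all in PKI.

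Fosl1 encodes Fra-1, a Fos family protein that lacks the strong activation domain of Fos and is often raised in epithelial tumours and wounds. The gene (ENSMUSG00000024912.6, GRCm38 chromosome 19, 5447547 to 5455946, plus strand) had the lowest level per kilobase of the 10 in every group and, in PKI, the highest fold change. In PKI the Con libraries 1 to 3 had 1.52, 0.633 and 0.542 CPM, and the BCC libraries 1 to 4 had 10.1, 12.6, 8.79 and 3.34 CPM. Every PKI BCC library lay above every PKI Con library, and BCC replicate 4 was the lowest of the 4. The log2 fold change was 3.26 (edgeR adjusted p 0.00298, SE 0.54, n = 3 and 4), or 9.55-fold. It was called with each of the 7 libraries left out in turn, at an edgeR adjusted p between 0.000472 and 0.0178. The log2 fold change was then 3.00 to 3.89, highest without PKI Con replicate 1, and with limma on the authors' signal it was 2.28. The Con values rest on 30, 10 and 9 counts. In SmoM2 Fosl1 had 0.598, 3.68 and 3.14 CPM in Con and 2.00, 2.31, 6.03 and 3.52 CPM in BCC. In Gnas-eKO it had 4.46, 0.952 and 3.43 CPM in Con and 5.09, 2.68, 6.14 and 7.29 CPM in BCC. The groups overlapped in both models, with log2 fold changes of 0.52 (SE 0.61) and 0.86 (SE 0.52). With 1 library left out these ran from 0.04 (without Con replicate 1) to 0.92 (without Con replicate 2) in SmoM2, and from 0.44 (without Con replicate 2) to 1.29 (without Con replicate 1) in Gnas-eKO, none of them called. Exons of Fosl1 overlap those of Ccdc85b on the other strand, which had 17 to 23.8 CPM over the 21 libraries. Reads of the overlap cannot be told apart if counting ignored the strand.

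Fos (ENSMUSG00000021250.13, chromosome 12, 85473890 to 85477273, plus strand), the founding member of the family and the classic immediate early gene, passed the edgeR test in no model. In SmoM2 it had 205, 118 and 303 CPM in Con and 153, 116, 147 and 119 CPM in BCC. In Gnas-eKO it had 114, 92.8 and 98.3 CPM in Con and 182, 105, 238 and 179 CPM in BCC. Of the 4 Gnas-eKO BCC libraries, only BCC replicate 2 lay within the Con range. In Gnas-eKO its log2 fold change was 0.81 (edgeR adjusted p 0.129, SE 0.25), and without that library it was 1.00 (edgeR adjusted p 0.00723). With all 7 libraries the DESeq2 Wald test called it too (0.80, adjusted p 0.0331), so the call turned both on 1 library and on the tool. In PKI the Con libraries had 114, 55.7 and 52.7 CPM and the BCC libraries 205, 180, 34.4 and 44.7 CPM. The PKI BCC libraries thus lay in a pair above and a pair below all 3 Con libraries, and the log2 fold change of 0.66 had an SE of 0.76 (edgeR adjusted p 0.545). It ran from 0.22 without BCC replicate 1 to 1.11 without Con replicate 1. In SmoM2 the log2 fold change was −0.63 (edgeR adjusted p 0.185, SE 0.31), −0.91 without Con replicate 2, the lowest Con library (edgeR adjusted p 0.0115), and −0.26 without Con replicate 3, the highest (edgeR adjusted p 0.506).

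Fosb (ENSMUSG00000003545.3, chromosome 7, 19302696 to 19310051, minus strand), another strong activator of the family, had groups that overlapped in each model. Its 9 Con libraries ranged from 18.7 to 127 CPM and its 12 BCC libraries from 11.2 to 107 CPM, and both BCC extremes were PKI libraries. Its log2 fold changes were −0.33 for SmoM2 (SE 0.50), 0.59 for Gnas-eKO (SE 0.42) and 0.73 for PKI (SE 0.80). Single libraries set these values: without SmoM2 Con replicate 3 the SmoM2 value turned to 0.22, without PKI BCC replicate 2 the PKI value turned to −0.13, and without Gnas-eKO Con replicate 3 the Gnas-eKO value was 1.23. Fosl2 (ENSMUSG00000029135.10, chromosome 5, 32135801 to 32157842, plus strand), which encodes Fra-2, had levels of 220 to 392 CPM in Con and 229 to 322 CPM in BCC. The log2 fold change was 0.24 in SmoM2 (edgeR adjusted p 0.0906, SE 0.10), −0.09 in Gnas-eKO (SE 0.18, and 0.11 without Con replicate 1) and −0.06 in PKI (SE 0.08). Leaving out SmoM2 BCC replicate 1, the lowest SmoM2 BCC library, gave 0.30 with an edgeR adjusted p of 0.0362.

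Junb (ENSMUSG00000052837.6, chromosome 8, 84976910 to 84978718, minus strand) had 182, 150 and 140 CPM in the PKI Con libraries. The PKI BCC libraries had 456, 449, 252 and 227 CPM, all above the Con libraries, with replicates 1 and 2 well above replicates 3 and 4. Junb rose 2.23-fold in PKI, or by a fitted log2 value of 1.16 (edgeR adjusted p 0.0193, SE 0.29). Without Con replicate 2 it was 1.12 (edgeR adjusted p 0.0616) and without Con replicate 3 it was 1.08 (edgeR adjusted p 0.0661), so the call needed both. In SmoM2 Junb had 203, 169 and 300 CPM in Con and 181, 173, 235 and 175 CPM in BCC, which overlapped (log2 fold change −0.22, SE 0.21). It was 0.05 without SmoM2 Con replicate 3 and −0.33 without BCC replicate 3. In Gnas-eKO it had 164, 162 and 180 CPM in Con and 204, 154, 219 and 295 CPM in BCC. Only BCC replicate 2 lay below the Con libraries there, and the log2 fold change was 0.39 (edgeR adjusted p 0.335, SE 0.20).

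Jun (ENSMUSG00000052684.4, chromosome 4, 95049034 to 95052222, minus strand) encodes c-Jun, the target of the JNK kinases and the usual partner of Fos. In PKI it had 91.4, 90.2 and 103 CPM in Con and 210, 203, 124 and 115 CPM in BCC. The groups did not overlap, and the pair of BCC replicates 1 and 2 again lay above the pair of replicates 3 and 4. Jun rose 1.74-fold in PKI, or by a fitted log2 value of 0.80 (edgeR adjusted p 0.0345, SE 0.24). This call was lost without PKI Con replicate 1, 2 or 3 or without PKI BCC replicate 1 or 2, with log2 fold changes of 0.64 to 0.86 and edgeR adjusted p of 0.0694 to 0.102. In Gnas-eKO Jun had 75.4, 51.4 and 119 CPM in Con and 177, 86.8, 282 and 305 CPM in BCC. Again only BCC replicate 2 fell within the Con range. Its log2 fold change was 1.40 (edgeR adjusted p 0.140, SE 0.45), and without that library 1.66 (edgeR adjusted p 0.0168). In SmoM2 Jun had 137, 127 and 164 CPM in Con and 78.3, 98.4, 133 and 112 CPM in BCC, lower in 3 of the 4 BCC libraries than in any Con library. The log2 fold change was −0.42 (edgeR adjusted p 0.114, SE 0.17). It passed with the DESeq2 Wald test (−0.43, adjusted p 0.0457) and without SmoM2 BCC replicate 3 (−0.55, edgeR adjusted p 0.0275). The antisense gene Junos, whose exons overlap those of Jun, had at most 1.37 CPM.

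Jund (ENSMUSG00000071076.6, chromosome 8, 70698949 to 70700616, plus strand) had 202 to 283 CPM in the 9 Con libraries and 158 to 282 CPM in the 12 BCC libraries. Its log2 fold changes were −0.25 in SmoM2 (edgeR adjusted p 0.0911, SE 0.10), −0.20 in Gnas-eKO (SE 0.18) and 0.17 in PKI (SE 0.15). The SmoM2 value passed without Con replicate 1 (−0.33, edgeR adjusted p 0.0450) and without BCC replicate 3 (−0.31, edgeR adjusted p 0.0480). The PKI value passed without BCC replicate 4, the lowest PKI library, at 0.29 (edgeR adjusted p 0.0358). Gm11175 on the other strand, whose exons overlap those of Jund, had at most 1.34 CPM.

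Egr1 encodes a zinc finger factor induced by the same kinases as Fos. The gene (ENSMUSG00000038418.7, chromosome 18, 34859823 to 34864984, plus strand) had 167, 86.4 and 112 CPM in the PKI Con libraries and 585, 558, 257 and 277 CPM in the PKI BCC libraries. All 4 BCC libraries lay above the Con libraries, in the same high and low pairs as Jun and Junb. Egr1 rose 3.48-fold in PKI, or by a fitted log2 value of 1.80 (edgeR adjusted p 0.0165, SE 0.41). Without Con replicate 2 it was 1.60 (edgeR adjusted p 0.0506) and without Con replicate 3 it was 1.74 (edgeR adjusted p 0.0566). In Gnas-eKO Egr1 had 157, 85.7 and 153 CPM in Con and 320, 141, 452 and 649 CPM in BCC. BCC replicate 2 again lay within the Con range and the other 3 above it. Its log2 fold change was 1.59 (edgeR adjusted p 0.120, SE 0.47), and 1.87 without that library (edgeR adjusted p 0.00979). In SmoM2 the Con libraries had 237, 135 and 441 CPM and the BCC libraries 286, 288, 362 and 236 CPM, so that Con spanned BCC (log2 fold change 0.13, SE 0.40, and −0.20 without Con replicate 2).

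Atf3 (ENSMUSG00000026628.13, chromosome 1, 191170296 to 191218039, minus strand), a stress-induced factor that pairs with Jun proteins, was low in every group. In PKI Con it had 6.47, 2.59 and 4.51 CPM and in PKI BCC 12.0, 26.1, 10.9 and 3.23 CPM. Of the PKI BCC libraries, only replicate 4 lay within the Con range. The log2 fold change was 1.53 (edgeR adjusted p 0.131, SE 0.69), and 1.86 without that library (edgeR adjusted p 0.0222). In SmoM2 it was 1.12 (SE 0.65) and in Gnas-eKO 0.68 (SE 0.72), and the groups overlapped in both. Without Con replicate 3 of the model these became 1.86 and 1.73, and without PKI BCC replicate 2 the PKI value was 0.94, none of them called. Dusp1 (ENSMUSG00000024190.7, chromosome 17, 26505590 to 26562128, minus strand), the phosphatase of the set, had the smallest log2 fold changes of the 10 in SmoM2, at 0.00 (SE 0.32), and values of −0.12 in Gnas-eKO (SE 0.38) and 0.19 in PKI (SE 0.65). In PKI it had 129, 46.3 and 57.0 CPM in Con and 127, 142, 41.2 and 37.9 CPM in BCC, again a high and a low pair. Its SE of 0.65 in PKI leaves changes of either sign within 1 SE. The sign turned without Gnas-eKO Con replicate 3 (0.48) and without PKI BCC replicate 2 (−0.17). Exons of Dusp1 overlap those of Ergic1 on the other strand, which had 21.8 to 90 CPM.

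Whether the BCC effect differed between models was tested as the difference of the log2 fold changes. Between PKI and SmoM2 it differed for 3 of the 10 genes, all higher in PKI, where 24.9% of 17261 genes passed. The difference was 2.73 for Fosl1 (edgeR adjusted p 0.0405, SE 0.89), 1.37 for Junb (edgeR adjusted p 0.0208, SE 0.38) and 1.22 for Jun (edgeR adjusted p 0.0158, SE 0.32). Jun and Junb were lower in BCC than in Con by fitted value in SmoM2, without an edgeR call, and rose in PKI. The difference for Egr1, 1.67 (SE 0.60), had an edgeR adjusted p of 0.0635. It passed with the DESeq2 Wald test (1.68, adjusted p 0.0269), without SmoM2 Con replicate 2 (2.00, edgeR adjusted p 0.0287) and without PKI BCC replicate 3 (1.85, edgeR adjusted p 0.0439), and was 1.13 without SmoM2 Con replicate 3 (edgeR adjusted p 0.164). With each of the 14 libraries left out in turn, Jun kept its call in all 14 fits. Junb lost it without SmoM2 Con replicate 3 (edgeR adjusted p 0.0543) or PKI Con replicate 3 (edgeR adjusted p 0.0551). Fosl1 kept its call in 4 of the 14 fits, those without SmoM2 Con replicate 1, SmoM2 BCC replicate 3, PKI Con replicate 1 (difference 3.38) or PKI BCC replicate 4. In the other 10 fits its edgeR adjusted p was 0.0544 to 0.110 and the difference 2.33 to 2.74.

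Between Gnas-eKO and SmoM2 edgeR called 0 of the 10, where 0.175% of 17151 genes passed. The values were highest for Jun at 1.82 (edgeR adjusted p 0.282, SE 0.53), Egr1 at 1.46 (SE 0.65) and Fos at 1.44 (edgeR adjusted p 0.257, SE 0.40), which were the 3 under an unadjusted p of 0.05 (8.74% of all genes), and the DESeq2 Wald test called Jun and Fos (1.02%). Without Gnas-eKO BCC replicate 2 the difference for Jun was 2.07 and passed (edgeR adjusted p 0.0395). Between PKI and Gnas-eKO edgeR also called 0 of the 10, where 9.06% of 17254 genes passed, with Fosl1 alone under an unadjusted p of 0.05 (25.3% of all genes) and alone called by the DESeq2 Wald test (13.4%). The difference for Fosl1 was 2.41 (edgeR adjusted p 0.0729, SE 0.78). It passed without Gnas-eKO Con replicate 2 (2.82, edgeR adjusted p 0.0442) and without PKI BCC replicate 4 (2.68, edgeR adjusted p 0.0361). For Jun the value was −0.60 (SE 0.55) and for Egr1 0.22 (SE 0.65), neither of them called.

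In the PKI libraries the high and the low pair followed the sex of the mouse, read from Xist and Ddx3y. Con replicate 1 and BCC replicates 1 and 2 were female, and the other 4 PKI libraries were male. In PKI 8 of the 10 genes had both female BCC libraries above both male BCC libraries, and 8 had the female Con library above both male Con libraries. The share of all genes that split by sex in this way was not computed for any model. These counts therefore only describe the 10 genes, whose levels are correlated. For Fos, the female libraries had 114 CPM in Con and 180 to 205 CPM in BCC, and the male libraries 52.7 to 55.7 CPM in Con and 34.4 to 44.7 CPM in BCC. The sexes are also the lower and the higher animal numbers in the file headers, so sex and the order of the animals cannot be told apart. In SmoM2 0 and in Gnas-eKO 1 of the 10 genes had both female BCC libraries above both male BCC libraries. The female Con library of SmoM2 lay above both male Con libraries for 9 of the 10. The opposite order in BCC was not counted, but Fosb, Fosl1, Jun and Atf3 had it in both models. Jun had 112 to 133 CPM in male and 78.3 to 98.4 CPM in female SmoM2 BCC libraries. In Gnas-eKO BCC it had 282 to 305 CPM in male and 86.8 to 177 CPM in female libraries. In Gnas-eKO BCC, the 2 female libraries include replicate 2.

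With sex as a covariate, a choice made after seeing the data, the same 4 genes were called in PKI, beside 38.6% of all genes tested. Their log2 fold changes were 3.15 for Fosl1 (edgeR adjusted p 0.000263, SE 0.37), 1.58 for Egr1 (edgeR adjusted p 1.94e-05, SE 0.12), 0.97 for Junb (edgeR adjusted p 0.000402, SE 0.12) and 0.66 for Jun (edgeR adjusted p 0.0299, SE 0.19). The SE of Egr1 fell from 0.41 to 0.12. For Fos the value moved from 0.66 to 0.04 (SE 0.29) and for Dusp1 from 0.19 to −0.19 (SE 0.12), neither called. Between PKI and SmoM2 the difference for Egr1 then passed, at 1.43 (edgeR adjusted p 0.0355), where 27.3% of all genes passed. Between PKI and Gnas-eKO that for Fosl1 passed, at 2.44 (edgeR adjusted p 0.0439), where 9.59% of all genes passed.

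**Figure D3:**
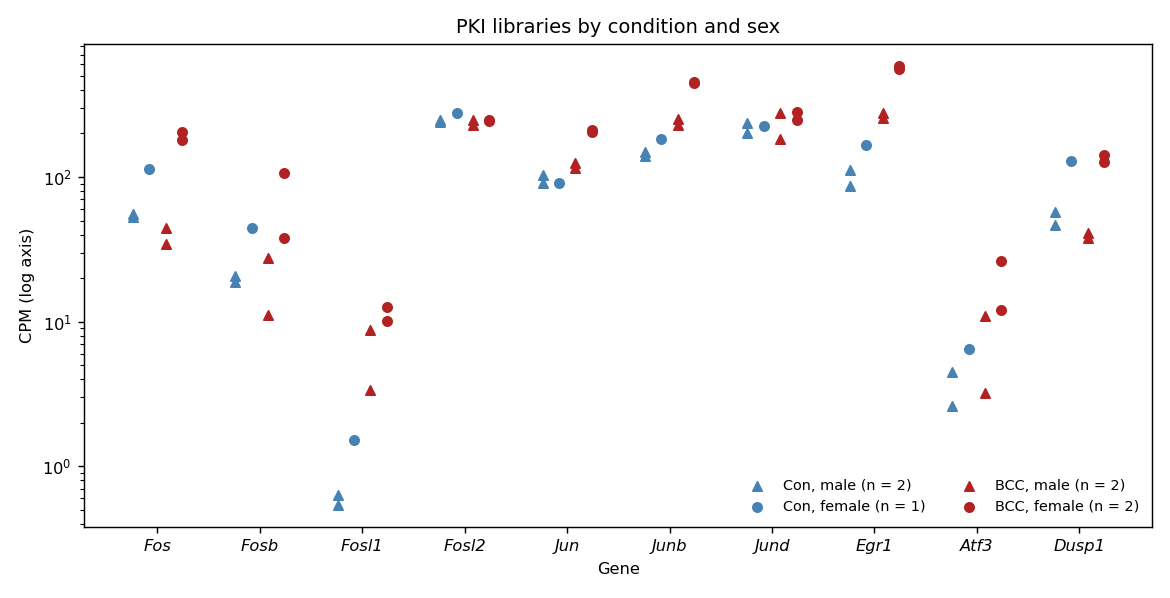
CPM (log axis) of the 10 genes in the 7 PKI libraries, blue for Con and red for BCC, circles for female and triangles for male libraries, 1 point per library. For Egr1 the female BCC libraries had 558 and 585 CPM and the male BCC libraries 257 and 277 CPM, with the Con libraries of either sex below them.

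Within the groups the genes moved together to different degrees. The deviations of log2 CPM from the group mean were correlated over the 21 libraries, as a description. These deviations share each library's scaling, handling and sex. Among Fos, Fosb, Jun, Junb, Egr1, Atf3 and Dusp1, the 21 pairs had Pearson r of 0.556 to 0.919 (median 0.767), highest for Fosb with Atf3. Fos and Junb had r of 0.86, Fos and Dusp1 0.81, and Junb and Dusp1 0.82. The 24 pairs that include Fosl1, Fosl2 or Jund had r of 0.0696 to 0.736 (median 0.388). This split of the genes was not planned beforehand, and the ranges overlap. Fosl1 had r of 0.697 with Atf3 and 0.601 with Jun, above the 0.556 of Fos with Jun. Fosl1, Fosl2 and Jund had r of 0.56 to 0.74 with each other.

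**Figure D4:**
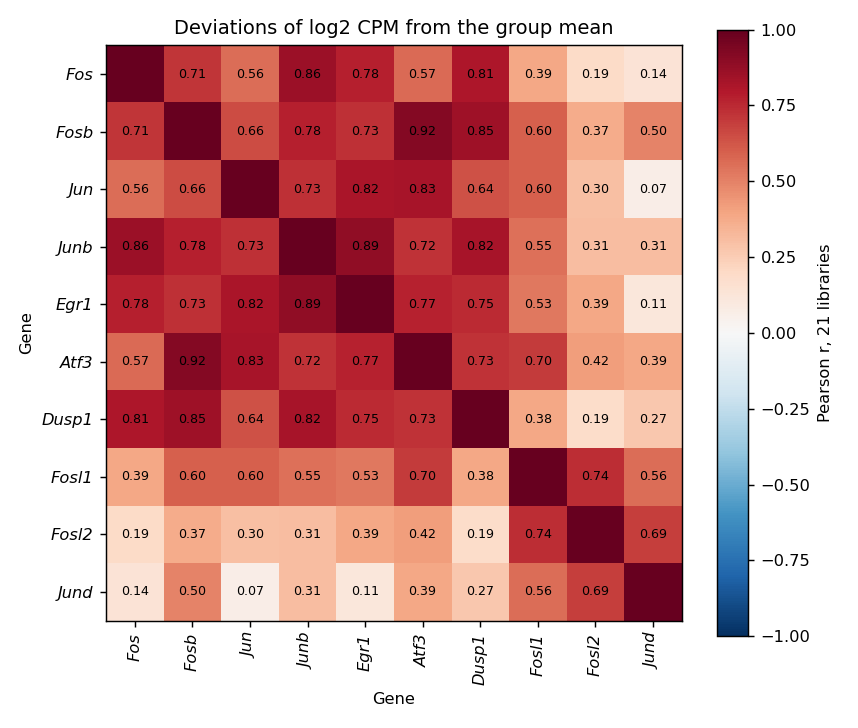
Pearson r between pairs of the 10 genes, computed over 21 libraries from deviations of log2 CPM from the mean of each group (n = 3 Con and 4 BCC in each of 3 models). The first 7 genes, placed together by a choice not planned beforehand, had r of 0.556 or more with each other. Fosl1, outside them, had r of 0.70 with Atf3, while Jund had r of 0.07 with Jun and 0.11 with Egr1.

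The genes whose deviations were most like those of a member were found among 12030 genes (average log2 CPM at or above 2), where the median r with each of the 10 genes lay between −0.02 and 0.03. For Fos they were Ier2 (r = 0.881), Zfp36 (0.878) and Ccn1 (0.865), over 21 libraries. For Junb they were Ier2 (0.950), Zfp36 (0.945) and Hbegf (0.899), and for Egr1 Zfp36 (0.929), Junb (0.887) and Dnaja1 (0.873). For Jun they were Btg2 (0.939), Dusp6 (0.937) and Ier3 (0.908). For Fosl1 they were Spint1 (0.859), Egr3 (0.836) and Plk3 (0.827). Zfp36 encodes an RNA-binding protein that speeds the decay of short-lived messenger RNAs, Hbegf a ligand of the EGF receptor, and Dusp6 a phosphatase of the ERK kinases.

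Other immediate early genes were counted from a list of 35. In PKI 15 of 34 tested were called higher and 3 lower in BCC (median log2 fold change 0.53 against −0.00 for all genes), in SmoM2 8 higher and 5 lower of 35 (median 0.06 against 0.00). The share called was 52.9% in PKI and 37.1% in SmoM2, beside 34.5% and 29.7% of all genes tested. In Gnas-eKO edgeR called 0 of 35, with 13 at an unadjusted p under 0.05, 4 by the DESeq2 Wald test and 0 by limma, against 19.6%, 8.32% and 1.58% of all genes, as for the lists that follow. The median log2 fold change of the 35 genes in Gnas-eKO was 0.40, against 0.02 for all genes. Without BCC replicate 2 edgeR called 8 of 35, while the genes called in all went from 267 to 1910 (11.8%). In PKI Areg, a ligand of the EGF receptor, rose from 0.841 ± 0.288 to 11.5 ± 2.53 CPM (mean ± SD, n = 3 Con and 4 BCC, as in the values that follow), or by a fitted log2 value of 3.77 (edgeR adjusted p 7.75e-05, SE 0.29). Arc rose from 1.28 ± 0.305 CPM to 9.11 ± 4.2 CPM (2.85, edgeR adjusted p 0.00107, SE 0.40). In Gnas-eKO the log2 fold change of Arc was 2.93, with overlapping groups and not called (edgeR adjusted p 0.170). Not all fast-responding genes moved that way: Ccn2, a matricellular protein gene, fell by 1.57 on the log2 scale in PKI (edgeR adjusted p 0.0077) and Klf4, a factor of epidermal barrier formation, by 0.54 (edgeR adjusted p 0.00861). In SmoM2 Egr4 rose, from 0.0552 ± 0.0541 CPM to 0.875 ± 0.277 CPM (edgeR adjusted p 0.00213), and Gadd45b, a stress response gene, fell from 37.4 ± 4.15 CPM to 12.8 ± 1.17 CPM (edgeR adjusted p 1.05e-05). Nr4a3 rose and Klf2 fell there too, with log2 fold changes of 1.97 (edgeR adjusted p 0.00719) and −1.04 (edgeR adjusted p 0.0201).

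Among 19 other bZIP genes that pair with Fos or Jun proteins or bind related sites, 3 were called higher and 2 lower of 17 tested in PKI, and 5 higher and 2 lower of 16 in SmoM2. The share called was thus 29.4% in PKI, below the 34.5% of all genes tested, and 43.8% in SmoM2, beside 29.7%. In Gnas-eKO edgeR called 0 of 16, with 2 at an unadjusted p under 0.05, 2 by the DESeq2 Wald test and 0 by limma. Maf, a factor of keratinocyte differentiation, fell in both models in which it was called, in SmoM2 by 1.31 on the log2 scale (edgeR adjusted p 8.17e-06), in PKI by 1.25 (edgeR adjusted p 5.16e-05). Its log2 fold change in Gnas-eKO was −1.51, lower in BCC without overlap but not called (edgeR adjusted p 0.0991). Batf, known from T cells, rose in PKI from 0.0201 ± 0.0348 CPM to 0.765 ± 0.54 CPM (edgeR adjusted p 0.00672), and the Con means of Batf and Egr4 are under the 0.19 CPM that 3 counts make at most. Atf5 rose by 1.09 in PKI (edgeR adjusted p 0.000518), and Atf2, a partner of Jun, by 0.45 in SmoM2 (edgeR adjusted p 0.0053).

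Of 23 genes of the MAP kinase pathway and its ternary complex factors, 7 were called higher and 2 lower in PKI, and 3 higher and 5 lower in SmoM2. These shares, 39.1% and 34.8%, lie near those of all genes tested, 34.5% and 29.7%. In Gnas-eKO edgeR called 0 of 23, with 7 at an unadjusted p under 0.05 and 1 called by each of the DESeq2 Wald test and limma. Elk3, a ternary complex factor that acts at the Fos promoter, rose in SmoM2 by 1.61 on the log2 scale (edgeR adjusted p 1.22e-05), in PKI by 1.81 (edgeR adjusted p 0.000318). Its log2 fold change in Gnas-eKO was 0.90, without overlap but not called (edgeR adjusted p 0.0507). Map3k1, a kinase upstream of JNK, fell in SmoM2 and PKI, by 0.46 (edgeR adjusted p 0.00367) and 0.57 (edgeR adjusted p 0.0143). Of 12 other dual specificity phosphatases, 5 were called higher and 2 lower in PKI and 4 higher and 3 lower in SmoM2, 58.3% in either model. In Gnas-eKO edgeR called 0 of 12, with 3 at an unadjusted p under 0.05, 2 by the DESeq2 Wald test and 0 by limma. Dusp2, which acts on ERK and p38 kinases, rose from 1.29 ± 0.63 CPM to 11.3 ± 1.29 CPM in SmoM2 (3.17, edgeR adjusted p 3.45e-05) and from 1.04 ± 0.678 CPM to 12.1 ± 3.41 CPM in PKI (3.51, edgeR adjusted p 0.000489). Its log2 fold change in Gnas-eKO was 2.87, without overlap but not called (edgeR adjusted p 0.101). Dusp6 rose from 22.3 ± 4.67 CPM to 84.6 ± 27 CPM in PKI (1.93, edgeR adjusted p 0.00213). These phosphatases changed in models in which Dusp1 did not pass.

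Genes induced by heat shock, and known to respond to enzymatic dissociation of tissue as immediate early genes do, were examined beside them. Of 16 heat shock genes, 6 were called higher and 2 lower in PKI, and 0 higher and 4 lower in SmoM2, where 9 had an unadjusted p under 0.05 (40.4% of all genes), the DESeq2 Wald test called 5 lower (26.7% called in either direction) and limma 1 higher and 4 lower (31.6%). The share called by edgeR was 50% in PKI, beside 34.5% of all genes tested, and 25% in SmoM2, below 29.7%. In Gnas-eKO edgeR called 0 of 16, with 4 at an unadjusted p under 0.05, 1 by the DESeq2 Wald test and 0 by limma. Their summed level was 4619 to 4719 CPM in PKI Con and 4980 to 5612 CPM in PKI BCC, higher in BCC without overlap. In SmoM2 it was 4442 to 5329 CPM in Con and 4114 to 4203 CPM in BCC, lower in BCC without overlap. The Gnas-eKO sums of 4244 to 4948 CPM in Con and 3884 to 4667 CPM in BCC overlapped. In PKI Hspa8 rose by 0.67 on the log2 scale (edgeR adjusted p 0.000968), while Hspb1 fell by 0.72 (edgeR adjusted p 0.0028). The part of heat shock or handling in the higher Fosl1, Jun, Junb and Egr1 of PKI BCC was not tested.

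Markers of other cells moved with the BCC groups too. Of all genes tested, edgeR called 34.5% in PKI (18.7% higher in BCC) and 29.7% in SmoM2 (16.2% higher). In Gnas-eKO it called 1.63% (1.46% higher). In PKI 5 of 6 T cell markers were called higher in BCC. Their summed level was 6.32 to 12.95 CPM in Con and 12.88 to 25.2 CPM in BCC, which overlapped. Of 7 macrophage or Langerhans cell markers, 5 were called higher in PKI, with sums of 7.34 to 20.3 CPM in Con and 47.2 to 76.2 CPM in BCC. Fibroblast markers summed to 15.9 to 43.5 CPM in PKI Con and 84.6 to 145 CPM in PKI BCC, to 17.2 to 39.8 and 388 to 524 CPM in SmoM2, and to 16 to 27.7 and 93.6 to 578 CPM in Gnas-eKO, each without overlap. Of the 6 fibroblast markers tested, 3 were called higher in PKI (Dcn, Lum and Col3a1), 2 in SmoM2 (Dcn and Col1a2) and 1 in Gnas-eKO (Dcn). The share called in SmoM2 was 33.3%, near the 29.7% of all genes. In SmoM2 the log2 fold change was 4.40 for Dcn, the most abundant of them, but 0.36 for Col1a1 and −0.07 for Col3a1, neither called. In SmoM2, over Con and BCC, the T cell sums were 1.46 to 3.76 CPM and the macrophage or Langerhans cell sums 12.2 to 22.6 CPM. Of 5 macrophage or Langerhans cell markers tested in SmoM2, 1 was called. This was Cd68, higher in BCC without overlap (log2 fold change 1.32, edgeR adjusted p 0.00703). In Gnas-eKO the T cell sums were 3.70 to 4.86 CPM in Con and 3.75 to 10.6 CPM in BCC, and the macrophage or Langerhans cell sums 17.2 to 21.6 and 16.8 to 41.2 CPM, overlapping but with higher maxima in BCC. Of 8 neutrophil markers 4 were in the table, summing to 1.2 to 4.00 CPM in PKI Con and 6.03 to 12.5 CPM in PKI BCC, without overlap, and to at most 5.62 CPM in the other models. Cxcr2, the only neutrophil marker tested in PKI, was called higher there (log2 fold change 1.91, edgeR adjusted p 0.00887, SE 0.42), and Csf3r was at 0 in every PKI Con library. Endothelial markers summed to at most 4.72 CPM, with Emcn at 0 in every SmoM2 Con library. Of 5 melanocyte markers, 3 were called lower in PKI and 1 lower in SmoM2, and edgeR called 0 in Gnas-eKO, where 0 were under an unadjusted p of 0.05. The part of these cells in the results was not tested. In SmoM2 the BCC animals carry another name prefix in the headers than the Con animals, and what it stands for is not stated, so the origin of the mice cannot be told apart from the tumour there.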

How the data were processed

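The authors deposited a table of estimated counts per gene for the 21 libraries, without normalization, in which 32.4% of the values are not whole. They also deposited a TMM-normalized signal, in which each value is the count times a factor of its library plus 0.001, as read from the values. Per the submitters' processing notes, bcl2fastq 2.20, cutadapt 1.18, STAR 2.7.0f, Partek and the build mm10 were used. Strand use in counting is not given in the sources used here.

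Counts were rounded, and each model's 7 libraries were fitted on their own, BCC against Con, with edgeR 4.0.16 in R 4.3.3 (filterByExpr by group, TMM, robust quasi-likelihood test, Benjamini-Hochberg adjustment over all genes tested). A gene was called at an adjusted p under 0.05. The SE was derived from the log2 fold change and the F statistic, the absolute fold change being divided by the root of F. Model pairs were compared by interaction contrasts over 14 libraries. CPM values use TMM library sizes over all 21 libraries, and correlations use log2 CPM with a prior count of 2. Alternatives were DESeq2 1.42.0 (size factors in edgeR, and its Wald test), no filter on low counts, a joint fit of all 21 libraries, a replicate block, limma 3.58.1 on log2 of the authors' signal plus 1 (genes with a mean of at least 1), and each library left out. A sex covariate was added after seeing the data.

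Library totals were 16645858 to 22251132 counts, so that 3 counts are at most 0.19 CPM; this covers counting error only. Within groups, every pair of libraries differed by more than sampling noise (lowest chi-square per degree of freedom 8.93). The labels do not say that each library is a separate mouse, although the headers name 1 animal each, so p-values measure the spread between these libraries. Replicate numbers were not taken to pair libraries. Gene models are from GENCODE M21, where 23009 of the 23713 genes were found by name and chromosome.

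The members, the gene lists and the naming rule were chosen with earlier results of these data known. Named were every member, Smo and Gnas, up to 2 called genes with the highest and 2 with the lowest fold change from each list and model, and the 3 genes most like Fos, Fosl1 and each called member.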

Additional observations from a re-analysis of the deposited data

Results flagged for a closer look

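Of 30 groups of 4 BCC libraries, 1 for each of the 10 genes in each model, 1 had a library set apart from the others: SmoM2 BCC replicate 3 had 235 CPM of Junb, while the other 3 SmoM2 BCC libraries had 173 to 181 CPM. Its gap to the nearest library was 0.867 of the range of the group, above the critical value of 0.829 for 4 samples. Chance alone flags about 1 in 20 such groups. The same library had the highest level of Fosl1, Fosl2, Jun, Jund, Egr1, Atf3, Fosb and Dusp1 among the SmoM2 BCC libraries. Without it the SmoM2 log2 fold change of Junb was −0.33 (edgeR adjusted p 0.281) against −0.22 with it (edgeR adjusted p 0.485), and Jun and Jund were the members that gained a call.

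The BCC effect differed between PKI and SmoM2 for 3 genes by the edgeR interaction test over 14 libraries. Of all genes tested, 24.9% passed the same test. The difference of the log2 fold changes was 2.73 for Fosl1, 1.22 for Jun and 1.37 for Junb, higher in PKI in each case. PKI and SmoM2 libraries also differ in batch and in the days since tumour induction, which cannot be told apart from the model.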

How the results depend on the processing

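Beyond the values given with the results, the calls depended on the processing as follows. In PKI, 4 of the 10 genes were called with DESeq2's size factors, its Wald test, limma on the authors' signal and the sex covariate (34.5%, 31.8%, 36.8% and 38.6% of all genes), and 3 without a filter on low counts (23.5%) and in the joint fit of 21 libraries (29.3%), both of which lost Jun (adjusted p 0.0663 and 0.109 by edgeR). In Gnas-eKO the DESeq2 Wald test called Fos, Jun and Egr1 (adjusted p 0.0331, 0.0144 and 0.0056), and the joint fit called Jun and Egr1 (edgeR adjusted p 0.0158 and 0.0358), where 14.9% of all genes were called. The PKI against SmoM2 difference of Fosl1 was lost without the filter (edgeR adjusted p 0.0655) and that of Jun in the joint fit (edgeR adjusted p 0.103). No called change turned its direction under any alternative run. Numbers of genes called moved by over 1.5 times as follows. Gnas-eKO had 267, but 1540 with the DESeq2 Wald test, 2644 in the joint fit, 106 with the sex covariate and 0 to 1910 with 1 library left out. Gnas-eKO against SmoM2 had 30, but 204 with the DESeq2 Wald test, 66 in the joint fit and 14 to 79 with 1 library left out. PKI against Gnas-eKO had 1564, but 2381 with the DESeq2 Wald test and 673 to 2512 with 1 library left out. With 1 library left out, SmoM2 had 3613 to 4627 genes called, PKI 4057 to 5466 and PKI against SmoM2 3401 to 4429. The cause of these shifts was not tested.

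Same-numbered Con and BCC libraries did not deviate together in every pair, with r of −0.20 to −0.07 (SmoM2), 0.09 to 0.23 (Gnas-eKO) and −0.01 to 0.30 (PKI). With 3 pairs in each model, such correlations cannot tell whether the replicate numbers pair libraries. The main fits did not pair them. Every Con library correlated best with its own number in no model (0, 1 and 2 of 3). A replicate block gave 3428 called genes for SmoM2 (20.9%), 135 for Gnas-eKO (0.823%) and 5988 for PKI (36.5%), and 21 (0.122%), 3958 (22.9%) and 925 (5.36%) in the differences of Gnas-eKO from SmoM2, PKI from SmoM2 and PKI from Gnas-eKO. The block added Jun, Jund and Atf3 in SmoM2, Jund in PKI and in PKI against SmoM2, Jun in Gnas-eKO against SmoM2, and Fosl1 and Junb in PKI against Gnas-eKO, and changed no other call of the 10 genes. Fosl1 and Atf3 had the lowest mean CPM of the 10 genes in every group, and the part of depth in their spread was not tested.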
